A study of Mus musculus with 9 samples.

Results

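Hyodeoxycholic acid (HDCA), a secondary bile acid, was added to a high-fat diet, and its effect on liver RNA was read by comparing 3 livers from mice on this diet with HDCA (HFD_HDCA) with 3 livers from mice on the high-fat diet alone (HFD). These are 6 of the 9 libraries of the series, chosen by their sample titles, and all 23337 genes of the count tables belonged to the comparison. All mice were labelled WT. They received a 60% high-fat diet, the same diet with 0.25% HDCA, or a normal diet (ND), for 12 weeks from 8 weeks of age, and liver was taken in the fed state. The 3 ND livers entered the estimate of spread and serve here as a reference level. Neither strain, sex, cage, litter nor day of dissection is given, nor whether a library holds more than 1 animal, so the p-values measure the spread between these samples, which may be technical in part. The series is titled around liver fat, the gut hormone GLP-1, invariant natural killer T cells and the receptor PPARα.

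Bile acids are made from cholesterol in hepatocytes, joined to taurine in mice, exported into bile by the pump BSEP and sensed by the nuclear receptor FXR and the membrane receptor TGR5. HDCA is a hydroxylated bile acid that arises through gut bacteria. PPARα is a nuclear receptor that fatty acids activate and that turns on genes of fatty acid oxidation, whereas insulin and glucose turn on the enzymes that build fat from sugar.

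Each HFD library held 17299300 to 20509200 reads on genes (rounded) and each HFD_HDCA library 17059100 to 17966800. Levels are given as CPM, the read count of a gene scaled to the library's total after correction for composition, and runs of 3 values are libraries 1, 2 and 3 of a group, in that order. The limit that a count of 0 allows, 3 reads, was 0.146 to 0.176 CPM, for counting error only. The 11 hepatocyte markers that were tested summed to 121240 to 146540 CPM in HFD and 127490 to 141910 CPM in HFD_HDCA. In bulk tissue, fewer cells of a kind and less RNA per cell cannot be told apart. A pair of libraries stood apart, HFD 1 in clock genes and HFD_HDCA 1 in acute phase genes. Summed clock genes reached 1220 CPM in HFD 1, while the other HFD livers had 647 and 608. Summed acute phase genes reached 77815 CPM in HFD_HDCA 1, while the other HDCA livers had 41413 and 41003. Counts of changed genes in a list are therefore also given without both where a count differed by over 1.5 times. These were not the only libraries to stand apart. HFD 3 had 5412 CPM of summed cholesterol synthesis genes against 2441 and 3221 in the other HFD livers. HFD 2 had 374 CPM of macrophage markers against 864 and 1505.

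With HDCA, 210 genes rose and 218 fell of 12587 tested, 1.67% and 1.73%, or 3.40% in either direction (edgeR's quasi-likelihood test, Benjamini-Hochberg adjusted p under 0.05). The median fold of the called genes was 1.76 for the rises and 1.93 for the falls, and 68 rises and 98 falls reached 2-fold. For all 428 genes the groups' libraries did not overlap, which held for 22.4% of all genes tested. Before adjustment, 2768 genes, or 22.0% of all tested, had a p under 0.05 in edgeR's test. Counts before adjustment in the lists below are to be read beside that share. The largest rises by the naming rule were those of Cspg5, Cyp4a31, Enho, Cyp4a10, Csad and Peg3, and the largest falls included those of Cyp2b13, Themis, LOC622167, Thrsp and Cyp26a1. Without both HFD 1 and HFD_HDCA 1, 531 genes rose and 446 fell, among them 182 and 169 of those above. Leaving out other libraries gave fewer calls, with 57 rises and 96 falls without HFD 3 and 55 and 72 without HFD_HDCA 3. The split between rises and falls depended on the values used: on log2(FPKM + 1), the Cufflinks levels per transcript length, 143 genes rose and 377 fell. Of the edgeR calls tested on that scale, 118 of 198 rises and 188 of 192 falls were called again. The split also depended on a single library, with 477 rises and 170 falls without HFD_HDCA 2.

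**Figure D1:**
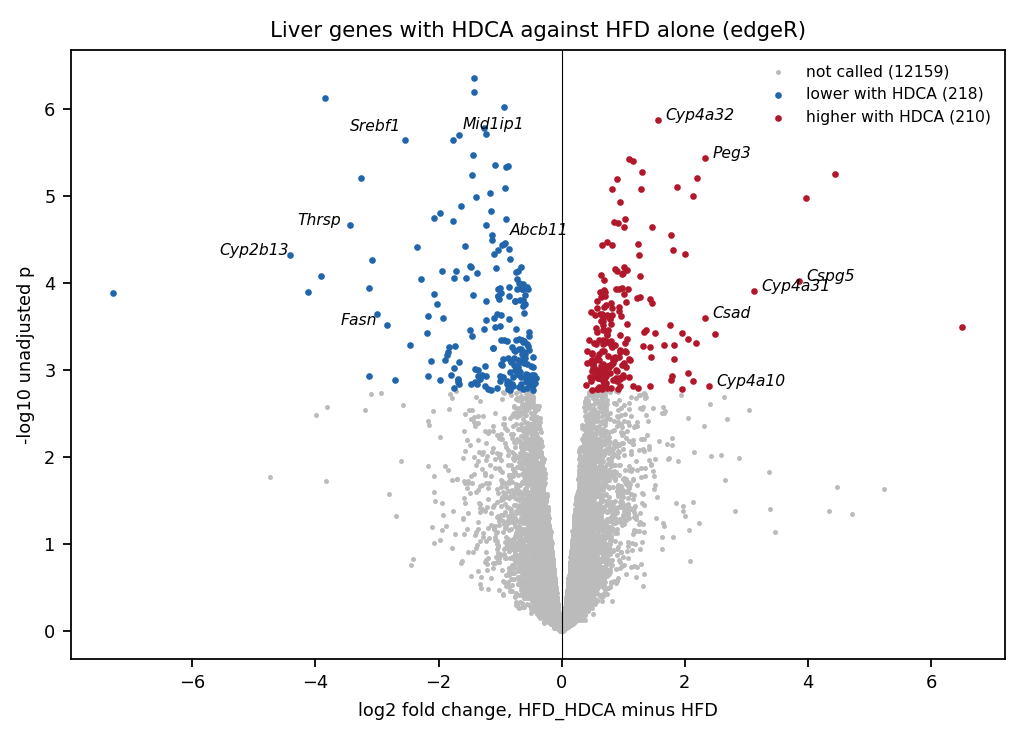
Each point is 1 of 12587 genes, with the log2 fold change of HFD_HDCA against HFD on the x axis and minus log10 of the unadjusted p from edgeR on the y axis; red and blue points passed an adjusted p of 0.05. The 210 rises and 218 falls lie on both sides, with Mid1ip1 and Srebf1 among the falls of smallest p and Cyp4a32 and Peg3 among the rises; the unlabelled outermost points are Gm15441 at 6.51 and 1700092C10Rik, which had 0 reads in every HFD_HDCA library.

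Of 32 tested target genes of PPARα, 7 rose and 0 fell, 29 lay higher, and the median log2 fold change was 0.94 against -0.00 for all genes tested. Their summed level overlapped between groups, at 17999, 26300 and 21656 CPM in HFD and 23693, 40774 and 43077 in HFD_HDCA. Beside the cytochromes Cyp4a31, Cyp4a10 and Cyp4a32, the rises were those of carriers of fatty acids and carnitine and of a peroxisomal enzyme. Slc22a5, encoding the carnitine transporter of the cell membrane, was at 28.0, 27.0 and 18.5 CPM in HFD and 57.9, 115 and 111 in HFD_HDCA, a 3.86-fold rise (log2 fold change 1.95, SE 0.35, adjusted p = 0.0252). No HFD liver exceeded 28.0 CPM and no HDCA liver was below 57.9. Ehhadh, the bifunctional enzyme of peroxisomal β-oxidation, rose 3.54-fold from 353, 537 and 365 to 691, 1932 and 1811 CPM (log2 fold change 1.82, SE 0.35, adjusted p = 0.0290), and HFD_HDCA 1 lay far below the other HDCA livers. The mitochondrial carrier gene Slc25a20 rose 1.64-fold (adjusted p = 0.0280). Well known targets that did not pass included Angptl4, an inhibitor of lipoprotein lipase, at 97.2, 91.7 and 54.1 against 132, 203 and 288 CPM (adjusted p = 0.0519). Pdk4, which holds back pyruvate oxidation, was at 5.63, 31.4 and 34.6 CPM in HFD and 31.3, 122 and 299.9 in HFD_HDCA, with groups that overlapped (adjusted p = 0.142).

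The number of PPARα targets called depended on single libraries. It was 15 without HFD_HDCA 1 or without both libraries that stood apart, 2 without HFD 3, and 18 by DESeq2. Of the 9 fits that each left out a library, 5 called Slc22a5, 4 Ehhadh and 6 Slc25a20, with adjusted p up to 0.0848 and 0.0992 without HFD 3 and 0.0954 without HFD_HDCA 3.

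Of 25 mitochondrial and ketone body genes 3 rose and 0 fell (median 0.35), and the count was 5 without both libraries and 0 without ND 1, HFD 3 or HFD_HDCA 3. Hadhb, a subunit of the trifunctional protein that cleaves long chains, rose 1.61-fold from 172, 238 and 194 to 275, 348 and 353 CPM (adjusted p = 0.0395), and Eci2, an isomerase for unsaturated chains, rose 1.83-fold (adjusted p = 0.0290). Of 30 peroxisomal genes 4 rose, or 7 without both libraries and 1 without HFD 3 or HFD_HDCA 3. Crot, the carnitine transferase that passes shortened chains on to mitochondria, rose 1.97-fold from 1111, 1432 and 987 to 2415, 2231 and 2311 CPM (log2 fold change 0.98, SE 0.16, adjusted p = 0.0120) and was called in all 9 fits without a library. The HDCA livers lay within a narrow band there, each above the highest HFD liver. Acot8, a peroxisomal thioesterase, and Decr2, a reductase, rose 1.61-fold and 1.53-fold. Hadhb was called in 2 of the 9 fits, Eci2 in 5, Acot8 in 7 and Decr2 in 3, with the largest adjusted p without HFD_HDCA 3, or without HFD 3 for Decr2.

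Slc27a2, an acyl-CoA synthetase and fatty acid transporter of liver, rose 1.72-fold from 1648, 1715 and 1328 to 2328, 2850.0 and 2894 CPM (adjusted p = 0.0198, and 0.0783 without HFD_HDCA 3). With Slc27a1 it made 2 rises and 0 falls among 20 genes of fatty acid uptake, or 4 rises and 1 fall without both libraries that stood apart and likewise by DESeq2. Cd36, the fatty acid translocase, was at 160.4, 212 and 191 against 99.3, 78.5 and 239 CPM and overlapped between groups (adjusted p = 0.537). Among omega-hydroxylases outside the Cyp4a family, Cyp4f14 fell from 219, 278 and 269 to 147, 156 and 163 CPM (log2 fold change -0.72, SE 0.12, adjusted p = 0.0140), called in 8 of 9 fits and at 0.0523 without HFD 3. The Cyp4a genes are near-identical, so the level of one of them is less certain than that of the family.

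Several genes of glucose transport and breakdown fell with HDCA. Slc2a2, the glucose transporter GLUT2, fell 2.05-fold from 349, 292 and 287 to 172, 134 and 147 CPM (adjusted p = 0.0140). Pklr, liver pyruvate kinase, fell from 209, 355 and 496 to 123, 106 and 94.6 CPM and Dak, listed today as Tkfc, which phosphorylates a product of fructose, from 340.4, 625 and 559 to 265, 243 and 211 CPM (adjusted p = 0.0118 and 0.0230). Both had risen from ND to HFD, by 1.66 and 1.04 on the log2 scale (adjusted p = 0.0231 and 0.0461), a comparison that shares the HFD libraries with this one. In all, 5 of 32 genes of glycolysis, fructose use and gluconeogenesis fell and 0 rose, with 26 lower and a median of -0.32. The count of falls was 11 without both libraries that stood apart, with 1 rise, 9 without HFD 1 and 1 without HFD_HDCA 3.

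Glycogen genes were looked at together after their values had been seen. Of 17 tested, 0 rose, and those that fell included the branching enzyme Gbe1, the phosphatase subunit Ppp1r3b, which directs glycogen synthesis, and the phosphorylase Pygl. Ppp1r3b was at 323, 614 and 572 CPM in HFD and 91.1, 144 and 124 in HFD_HDCA (log2 fold change -2.07, SE 0.27, adjusted p = 0.00599). Gbe1 went from 150.0, 206 and 199 to 64.3, 68.6 and 74.3 CPM (log2 fold change -1.42, SE 0.13, adjusted p = 0.00283). Both genes kept their calls in all 9 fits without a library, whereas Pygl kept it in 4, with 0.105 without HFD_HDCA 3. The genes that fell thus include those that build glycogen and those that break it down. Pik3r1, a regulatory subunit of the insulin-activated kinase PI3K, also named after its values were seen, fell 2.34-fold from 88.2, 111 and 96.8 to 36.1, 48.3 and 42.2 CPM (adjusted p = 0.00283). Eif4ebp3, an inhibitor of translation initiation, rose 4.41-fold from 8.34, 7.37 and 6.88 to 39.2, 28.3 and 32.1 CPM (adjusted p = 0.00425). These were the only calls among 25 genes of insulin signalling, a list also drawn up after values were seen (2 rises and 1 fall without both libraries).

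Of 25 tested genes of fatty acid synthesis and its regulators 6 fell and 0 rose, 22 lay lower and the median was -1.08. Their summed level overlapped between groups, at 8201, 12971 and 23968 CPM in HFD and 6238, 6228 and 9529 in HFD_HDCA, with HFD 3 far above the rest. Beside Srebf1, Thrsp, Fasn, Pklr and Dak, the member that fell was Mid1ip1, which encodes an activator of acetyl-CoA carboxylase. Mid1ip1 was at 88.9, 77.2 and 90.4 CPM in HFD and 28.4, 29.2 and 18.1 in HFD_HDCA (log2 fold change -1.76, SE 0.19, adjusted p = 0.00283), without overlap, and averaged 37.2 ± 6.20 in ND (SD, n = 3). The number of falls was 12 without HFD 1, 9 without both libraries, 3 without HFD_HDCA 3 and 11 by DESeq2. Triglyceride synthesis had 1 rise and 1 fall among 17 genes, or 3 and 1 without both libraries. Dgat2, the last enzyme of triglyceride synthesis, fell 1.53-fold from 598, 534 and 449 to 330.4, 336 and 368 CPM (adjusted p = 0.0317), and Ppap2c, now Plpp2, a lipid phosphatase, rose 1.84-fold. Dgat2 was called in 2 of the 9 fits and Ppap2c in 3, with adjusted p up to 0.0811 without HFD 2 and 0.125 without HFD 3.

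Gm6484, now Angptl8, encodes an insulin-responsive inhibitor of lipoprotein lipase. It rose from ND to HFD (2.47 on the log2 scale, adjusted p = 0.0232) and fell 3.37-fold with HDCA, from 91.5, 159 and 75.3 to 24.0, 39.6 and 33.2 CPM (adjusted p = 0.0388), but was at 0.0978 without both libraries that stood apart. Of 22 lipid droplet genes Fitm2, which helps droplets bud from the endoplasmic reticulum, rose from 29.5, 37.1 and 31.2 to 40.0, 60.5 and 57.3 CPM (adjusted p = 0.0458, called in 1 of 9 fits) and 0 fell, with 4 rises without both libraries and 5 by DESeq2. The droplet coat gene Plin2 was at 501, 1049 and 875 against 749, 1877 and 1691 CPM (adjusted p = 0.219) and Cidec, which fuses droplets, at 2.55, 23.0 and 13.2 against 3.27, 17.8 and 20.6 (adjusted p = 0.957). Library 1 was the lowest of both groups for each of these coat genes. Cidea, a relative of Cidec, had 3, 110 and 26 reads in HFD and 2, 2 and 9 in HFD_HDCA and was too low to be tested. HFD 2 also had the most reads of the fat tissue genes Adipoq and Lep, at 29 and 15. The part of fat tissue in these values was not tested. Apom, an apolipoprotein of high-density lipoprotein, rose 2.06-fold from 171, 151 and 177 to 459, 295 and 273 CPM (adjusted p = 0.0153).

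**Figure D2:**
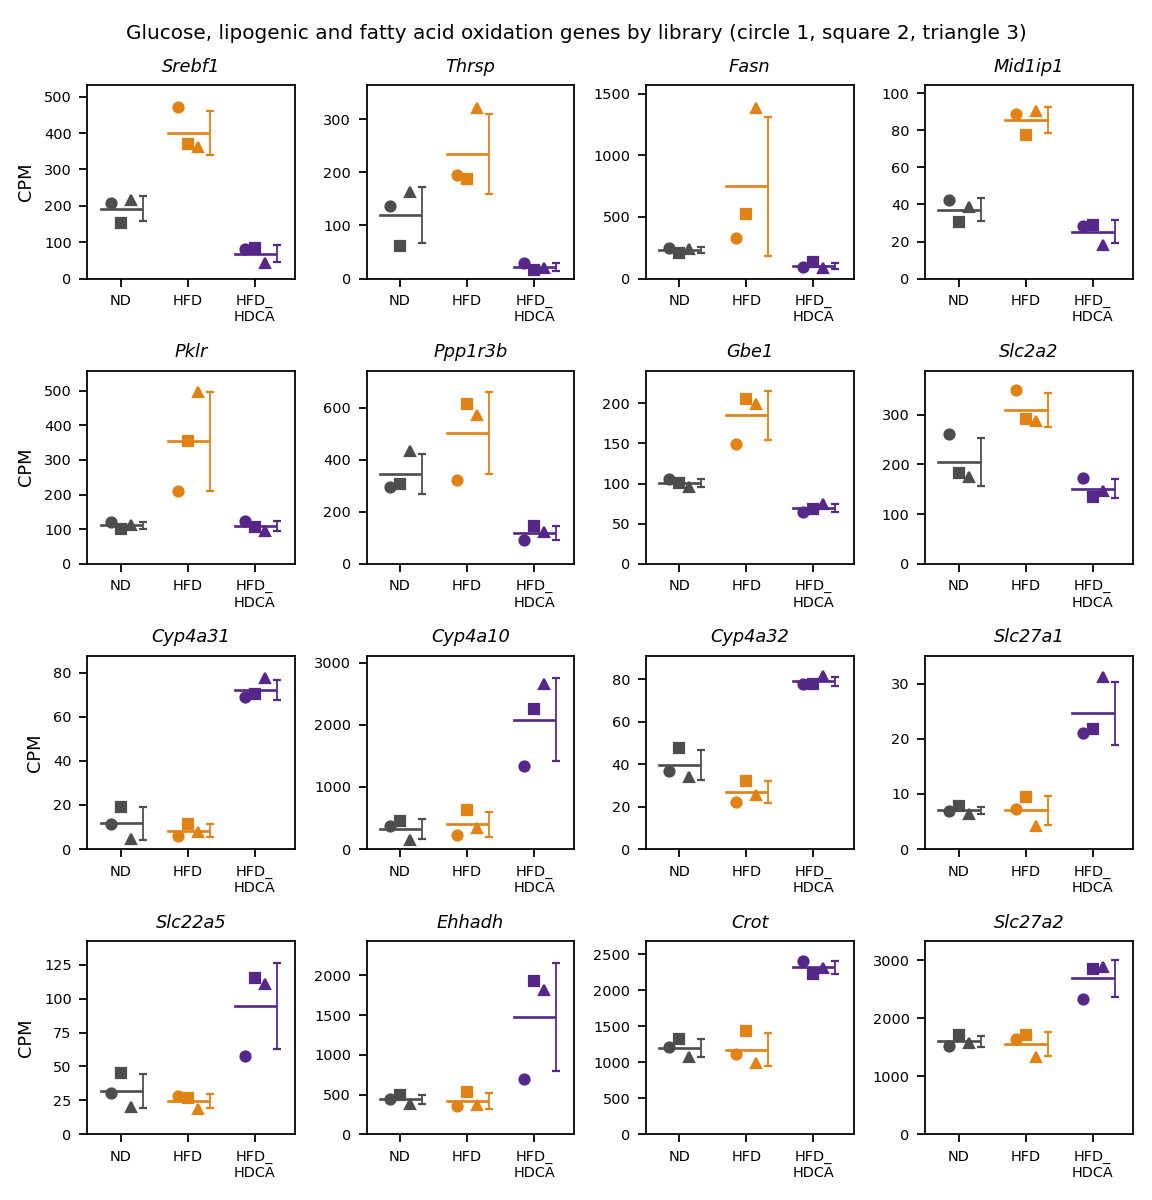
CPM on the y axis for 16 genes in each ND, HFD and HFD_HDCA library, with the mean as a line and the SD as a bar beside it (n = 3); circles, squares and triangles are libraries 1, 2 and 3. In the upper 8 panels, from Srebf1 to Slc2a2, every HFD_HDCA library lies below every HFD library, and in the lower 8, from Cyp4a31 to Slc27a2, every one lies above. All 16 are called genes, and no called gene overlapped between these groups.

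Cholesterol synthesis gave no call. Among 25 of its genes edgeR called 0 in either direction, while 1 lay above and 2 below before adjustment (p under 0.05), and DESeq2 called 1 lower, as did edgeR without both libraries (median -0.20). Of 15 genes of the oxysterol receptor LXR and sterol efflux 2 fell, Srebf1 and Abca1, or 3 fell and 1 rose without both libraries. Abca1, which loads cholesterol onto apolipoprotein A-I, was at 206, 204 and 208 CPM in HFD and 137, 144 and 139 in HFD_HDCA, a 1.47-fold fall with very little spread in either group (log2 fold change -0.56, SE 0.09, adjusted p = 0.0140). It was called in 8 of 9 fits and at 0.0607 without HFD_HDCA 3.

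In bile acid synthesis the genes of 2 oxysterol hydroxylases rose and the main initiating enzyme gave no call. Cyp7b1, the oxysterol 7α-hydroxylase, on chromosome 3 from 18071944 to 18243890 in the RefSeq annotation of GRCm38.p6, as for all gene positions here, was at 73.2, 126 and 90.8 CPM in HFD and 429, 254 and 230.5 in HFD_HDCA (log2 fold change 1.66, SE 0.32, adjusted p = 0.0290). It averaged 503 ± 177 in ND (SD, n = 3) and had a log2 fold change of -2.38 from ND to HFD (adjusted p = 0.0162, with the HFD libraries shared). The rise was largest in HFD_HDCA 1, and without that library it was 1.34 with an adjusted p of 0.0501. Cyp39a1, a 24-hydroxycholesterol 7α-hydroxylase, was at 33.6, 28.7 and 32.5 and 45.0, 54.0 and 47.5 CPM (log2 fold change 0.63, SE 0.11, adjusted p = 0.0142), and with Acot8 these made 3 rises and 0 falls among 17 genes of synthesis and conjugation (1 rise without HFD 3 or HFD_HDCA 3, and 3 rises and 1 fall without both libraries that stood apart). Cyp7b1 was called in 6 of the 9 fits and Cyp39a1 in 7.

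Cyp7a1, the rate-limiting enzyme of the classic pathway, was at 85.1, 119 and 28.1 CPM in HFD and 48.0, 2.96 and 12.3 in HFD_HDCA (adjusted p = 0.252). The groups overlapped through HFD 3 and HFD_HDCA 1. Cyp8b1, which makes cholic acid by 12α-hydroxylation, was higher in every HDCA liver, at 867, 845 and 770.0 against 163, 552 and 487 CPM, without passing the test (log2 fold change 1.05, SE 0.37, adjusted p = 0.148). Without HFD 1, its lowest library, the difference was 0.67 with an adjusted p of 0.0442. Cyp2c70, the hydroxylase that makes muricholic acids in mice, was lower in every HDCA liver, at 131, 48.5 and 115 against 269, 294 and 279.6 CPM (adjusted p = 0.0616, and 0.0322 on log2(FPKM + 1)), and averaged 853 ± 343 in ND (SD, n = 3). Cyp27a1, which begins the alternative pathway, was at 376, 448 and 443 against 332, 351 and 413 CPM (adjusted p = 0.376).

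Csad, which makes hypotaurine on the way to the taurine that mouse bile acids are joined to, lies on chromosome 15 from 102176997 to 102205052. It was at 52.9, 86.6 and 87.3 CPM in HFD, 266, 563 and 313 in HFD_HDCA and 439 ± 197 in ND (SD, n = 3). With HDCA it rose 5.03-fold (log2 fold change 2.33, SE 0.40, adjusted p = 0.0196), and every HDCA liver lay at least at 266 CPM against at most 87.3 in HFD. From ND to HFD it had gone the other way, with a log2 fold change of -2.54 (adjusted p = 0.0252). It was called in 6 of 9 fits and at 0.0606 without HFD 3. Mat1a, which makes S-adenosylmethionine, rose 1.59-fold and Prodh, a proline-degrading enzyme, fell 1.69-fold. With Csad these were the calls among 35 genes of amino acid breakdown, and Mat1a and Prodh were each called in 2 of 9 fits. Without both libraries the list had 1 rise and 4 falls.

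Of 16 genes of bile acid and organic anion transport 3 fell and 0 rose. Abcb11, encoding the bile salt export pump BSEP, was at 707, 733 and 692 CPM in HFD and 292, 382 and 415 in HFD_HDCA (log2 fold change -0.97, SE 0.14, adjusted p = 0.00825). Atp8b1, the lipid flippase of the same canalicular membrane, was at 52.4, 50.2 and 53.8 and 30.3, 29.8 and 25.3 CPM (log2 fold change -0.87, SE 0.10, adjusted p = 0.00341). Both were called in all 9 fits without a library, and their HFD levels hardly varied. Slc22a7, the organic anion transporter OAT2, fell 3.83-fold from 25.4, 46.7 and 39.0 to 11.6, 9.70 and 7.70 CPM (adjusted p = 0.0118). The uptake transporter Slc10a1, or NTCP, was at 603, 687 and 697 against 678, 637 and 704 CPM (adjusted p = 0.929). Ostb, now Slc51b, a subunit of the sinusoidal exporter, had 16, 16 and 9 reads in HFD and 5, 1 and 0 in HFD_HDCA and was too low to be tested.

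Among 14 bile acid receptor and feedback genes Abcb11 and Fgfr4 fell and 0 rose, or 3 fell and 2 rose without both libraries. Fgfr4, the receptor through which intestinal FGF15 holds back bile acid synthesis, went from 44.2, 60.5 and 48.6 to 30.3, 33.5 and 35.0 CPM (adjusted p = 0.0281, called in 4 of 9 fits). Nr1h4, the gene of FXR, was at 126, 159 and 118 against 183, 162 and 161 CPM (adjusted p = 0.218), and Nr0b2, the gene of its target SHP, at 37.5, 44.4 and 48.7 against 16.1, 45.3 and 34.6 (adjusted p = 0.487). Gpbar1, the gene of TGR5, had 3 reads in the HFD_HDCA libraries together and 0 in HFD. For the gut hormone axis, Gcg, which encodes GLP-1, and Fgf15 had 0 reads in all 6 libraries, and the GLP-1 receptor gene Glp1r had 1 read in HFD_HDCA 1 and 0 in the others.

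**Figure D3:**
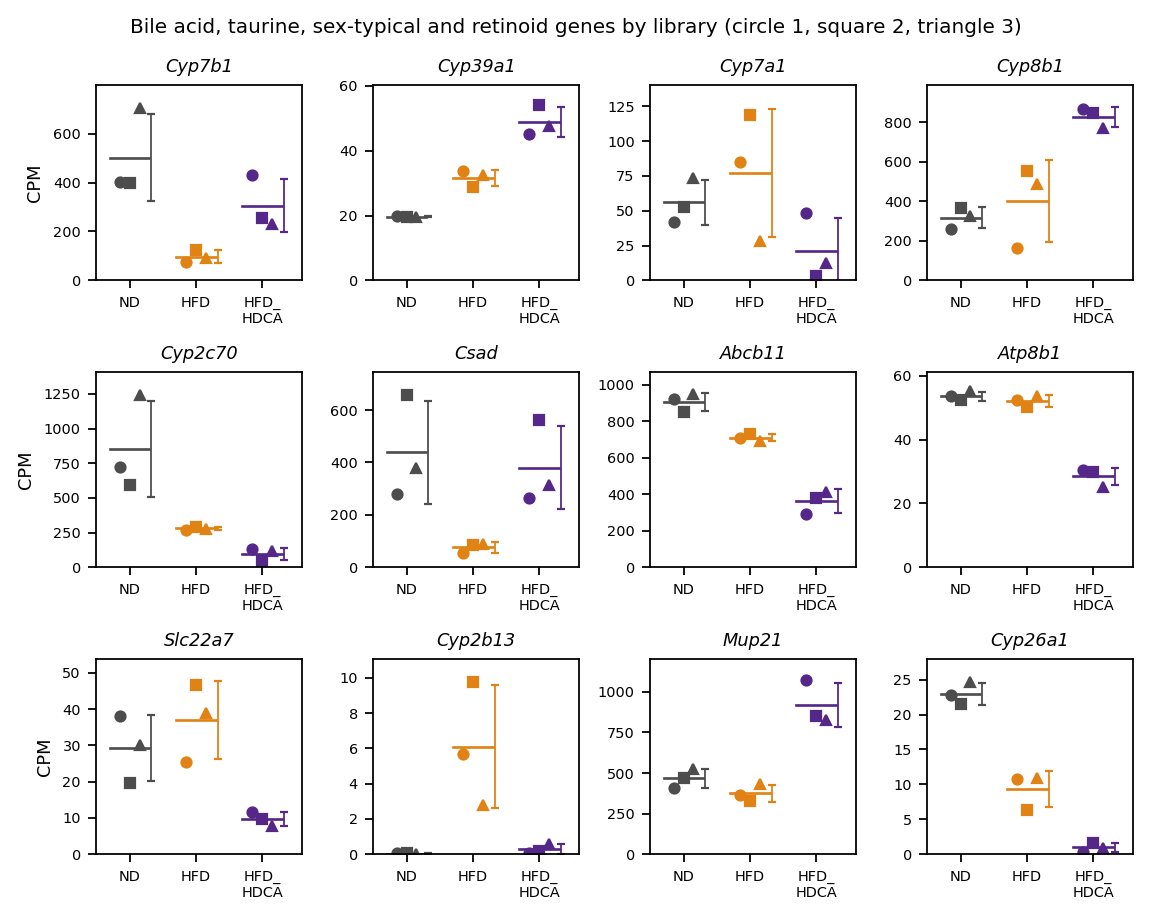
CPM on the y axis for 12 genes of bile acid, taurine, sex-typical and retinoid metabolism in each library, with the mean as a line and the SD as a bar (n = 3); circles, squares and triangles are libraries 1, 2 and 3. Cyp7b1 and Csad are low in all 3 HFD libraries and higher in ND and HFD_HDCA, Abcb11, Atp8b1 and Slc22a7 are lowest in HFD_HDCA, and Cyp7a1 overlaps between HFD and HFD_HDCA.

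Among genes that differ between male and female mouse liver, female-typical genes fell and male-typical genes rose where they passed the test, with 1 exception. Cyp2b13, a female-typical cytochrome on chromosome 7 from 26061388 to 26096197, was at 5.69, 9.75 and 2.81 CPM in HFD and 0.0606, 0.174 and 0.602 in HFD_HDCA, with an ND mean of 0.0354 CPM. It fell 21.4-fold (log2 fold change -4.42, SE 0.65, adjusted p = 0.00925), with HFD_HDCA 1 and HFD_HDCA 2 at no more than about the level of 3 reads. Hao2, a hydroxyacid oxidase, fell 8.43-fold from 5.47, 6.82 and 3.96 to 0.363, 0.407 and 1.14 CPM (adjusted p = 0.0102), and Cyp2a22 fell from 6.72, 11.6 and 5.78 to 2.48, 1.51 and 3.49 CPM (adjusted p = 0.0435). Among 23 genes typical of female liver these were the 3 falls, with a median of -0.45, and Cyp4a10 was the 1 rise. Without both libraries that stood apart 2 fell and 0 rose.

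Of 28 genes typical of male liver 3 rose and 0 fell, with a median of 0.53. Mup21, a major urinary protein, rose 2.44-fold from 368, 328 and 430.4 to 1075, 849 and 829.7 CPM (log2 fold change 1.29, SE 0.16, adjusted p = 0.00380). Cspg5, a neuroglycan, was at 0.379, 0.303 and 0.104 CPM in HFD and 5.51, 4.94 and 1.2 in HFD_HDCA (log2 fold change 3.86, SE 0.62, adjusted p = 0.0131), and averaged 3.61 ± 0.743 in ND (SD, n = 3). The third was Cyp7b1. In the list of all major urinary proteins, drawn up after values were seen, 4 of 16 rose, 0 fell and the median was 1.09, and the sum of the list ran from 12166 to 14304 CPM in HFD and from 22697 to 39143 in HFD_HDCA. Mup3, one of the 4 with Mup10, Mup13 and Mup21, was at 9422, 7488 and 7798 against 17386, 13748 and 15051 CPM (adjusted p = 0.0118). HFD_HDCA 1 had the highest sum. Mup genes are near-identical, and reads aligned at more than 1 place were kept out of the gene counts. Such reads were 13.3 to 14.0% of all in HFD and 14.5 to 16.0% in HFD_HDCA, and their part in these values was not tested. The sex of the animals was not given, and its part in these values was not tested. Cyp2a22 was called in 1 of 9 fits and at 0.118 without HFD 2, whereas Cyp2b13, Hao2, Cspg5, Mup21 and Mup3 were called in all 9.

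Among 31 drug-metabolising genes of the receptors CAR and PXR 1 rose and 4 fell. Cyp2c29 fell 1.85-fold from 910.3, 1252 and 853 to 545, 448 and 639 CPM, Cyp1a2 1.76-fold from 383, 304 and 262 to 197, 203 and 139, and Aldh1a7 1.85-fold (adjusted p = 0.0280, 0.0356 and 0.0441). Cyp1a2 had also fallen from ND to HFD (-1.17 on the log2 scale, adjusted p = 0.0164). Cyp3a13 rose from 161, 177 and 146 to 419, 237 and 242 CPM (adjusted p = 0.0441), most in HFD_HDCA 1. Cyp3a11, the main bile acid and drug hydroxylase induced through PXR, was at 744, 932 and 1176 against 1179.5, 462 and 451 CPM (adjusted p = 0.501). Without HFD_HDCA 1 its difference was -1.05 with an adjusted p of 0.0354. The list had 2 rises and 6 falls without both libraries, and 1 fall without ND 1, ND 2 or HFD 2.

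Cyp26a1, which degrades retinoic acid, fell 9.58-fold from 10.8, 6.36 and 10.9 to 0.363, 1.63 and 0.902 CPM (log2 fold change -3.26, SE 0.38, adjusted p = 0.00343), against 23.0 ± 1.57 in ND (SD, n = 3). No HDCA liver exceeded 1.63 CPM, and the call held in all 9 fits. Tfrc, the transferrin receptor, fell 2.37-fold (adjusted p = 0.0473, called in 1 of 9 fits), and these were the 2 falls among 23 retinoid and iron genes. Of 26 NRF2 and glutathione genes Gstm6 fell from 83.6, 95.0 and 97.7 to 66.0, 51.8 and 58.4 CPM (adjusted p = 0.0278), and without both libraries 4 fell and 1 rose.

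Hepatocytes near the central vein and near the portal vein express different genes. Of 18 tested pericentral genes 6 fell and 0 rose, 15 lay lower and the median was -0.65. Their summed level overlapped between groups, at 14354, 16984 and 11794 CPM in HFD and 11779, 13129 and 16861 in HFD_HDCA. Of 15 periportal genes edgeR called 0, while 2 each way passed before adjustment (p under 0.05) and DESeq2 called 1 rise and 2 falls, as did edgeR without both libraries (median -0.19). Nkd1 and Rnf43, a pair of targets and brakes of Wnt signalling, fell 2.04-fold from 10.9, 10.1 and 9.95 to 4.91, 5.52 and 4.75 CPM and 1.69-fold from 30.8, 32.9 and 27.2 to 15.5, 17.2 and 21.1 CPM (adjusted p = 0.0152 and 0.0311). Rgn, a calcium-binding lactonase, and Gulo, the last enzyme of vitamin C synthesis, fell 1.65-fold and 1.48-fold (adjusted p = 0.0421 and 0.0443), as did Cyp1a2 and the amino acid transporter Slc1a4. Glutamine synthetase, Glul, the defining pericentral gene, was at 942, 1499.8 and 1375 against 869, 708 and 752 CPM, lower in every HDCA liver but short of the threshold (adjusted p = 0.0548). The count of falls was 7 without HFD 1 or without both libraries, and 1 without HFD 2 or HFD_HDCA 3.

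Several genes induced by interferon rose with HDCA. Of 38 tested 7 rose and 0 fell, 32 lay higher and the median was 0.53. The level summed over the list was 1143 to 1387 CPM in HFD and 1623 to 1886 in HFD_HDCA, without overlap. Ifit1, Ifit3 and Isg15, whose products restrict viral RNA or tag proteins, are classic targets of type I interferon. Their promoters are shown because each holds the letters of the response element known to bind the interferon-activated complex of STAT proteins and IRF9. The sequences are from RefSeq (GRCm38.p6), 250 bases before to 50 after the gene's start and 5′ to 3′ on the gene's strand, and capitals mark each match on either strand to GAAA, any 2 bases, and GAAA again, with overlapping matches merged.
Ifit1, chr19:34640639-34640938, plus strand: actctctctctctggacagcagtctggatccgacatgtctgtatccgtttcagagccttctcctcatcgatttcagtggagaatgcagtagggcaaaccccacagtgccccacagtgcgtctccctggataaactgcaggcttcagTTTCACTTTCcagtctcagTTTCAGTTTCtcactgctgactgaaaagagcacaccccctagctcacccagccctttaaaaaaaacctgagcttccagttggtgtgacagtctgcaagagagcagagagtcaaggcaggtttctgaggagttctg
Ifit3, chr19:34583279-34583578, plus strand: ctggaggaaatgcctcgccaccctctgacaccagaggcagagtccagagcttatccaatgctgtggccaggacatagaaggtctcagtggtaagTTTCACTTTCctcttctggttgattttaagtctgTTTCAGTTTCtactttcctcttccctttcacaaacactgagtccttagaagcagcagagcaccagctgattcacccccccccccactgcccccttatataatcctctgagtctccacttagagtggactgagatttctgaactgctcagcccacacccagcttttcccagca
Isg15, chr4:156200769-156201068, minus strand: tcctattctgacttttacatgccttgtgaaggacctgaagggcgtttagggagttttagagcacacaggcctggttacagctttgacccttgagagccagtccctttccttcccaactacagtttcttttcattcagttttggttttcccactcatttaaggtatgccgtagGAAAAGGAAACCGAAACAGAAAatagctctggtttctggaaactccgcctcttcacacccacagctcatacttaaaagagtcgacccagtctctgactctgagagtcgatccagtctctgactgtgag

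The promoters of Ifit1 and Ifit3 held 2 matches each and that of Isg15 held 3, which overlap. Such a match stood in 3.44% of all 32851 promoters of that source, or in a promoter of 3.99% of its 27025 genes, and of 17 of the 28 tested interferon genes found there. Among the genes that rose with HDCA, 10 of the 167 found there held one, and among those that fell, 4 of 162. The matches describe these letters only, since no binding was measured. A repeat of AGGNCA with 1 base between the copies, the form that PPARα prefers, was searched in the same way. It stood in 0.381% of all promoters, or 0.451% of genes. Of the 22 tested PPARα targets found there 1 held it, Fabp1, and of the 5 called ones 0 did. With so rare a match, so few genes cannot show whether these targets differ from other genes.

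Ifit1 was at 8.77, 13.0 and 6.82 CPM in HFD and 18.1, 23.9 and 19.3 in HFD_HDCA, a 2.14-fold rise (log2 fold change 1.10, SE 0.23, adjusted p = 0.0349). Ifit3 went from 9.10, 11.1 and 6.67 to 14.4, 16.7 and 15.3 CPM and Isg15 from 7.31, 8.79 and 7.40 to 13.9, 12.4 and 13.5 (adjusted p = 0.0413 and 0.0379). In each of these genes every HDCA liver lay above every HFD liver, as in all 210 genes that rose. Zbp1, a sensor of nucleic acids, rose 2.49-fold and Ifi27l1, an interferon-induced membrane protein, 2.06-fold, both most in HFD_HDCA 1, at 20.1 and 181 CPM, where the acute phase genes were also high. The GTPases Mx1 and Iigp1 rose 2.16-fold and 1.57-fold (adjusted p = 0.0351 and 0.0313). Without HFD_HDCA 1, 5 members of the list rose, and 6 did without both libraries. None did without ND 2, HFD 3 or HFD_HDCA 3, while DESeq2 called 12 and 20 passed before adjustment (p under 0.05), all higher. The adjusted p of the 7 genes reached 0.0962 to 0.117 in the fits without a library.

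Antigen presentation genes were not called. Among 22 of them edgeR passed 0, while 6 lay above before adjustment (p under 0.05), DESeq2 called 1 and edgeR without both libraries 2 (median 0.28). Cd1d1, which presents lipids to invariant natural killer T cells, was at 208, 241 and 208 CPM in HFD and 321, 250.2 and 269 in HFD_HDCA, higher in every HDCA liver (log2 fold change 0.35, SE 0.13, adjusted p = 0.142). The markers of T, natural killer and natural killer T cells gave 1 call among 13 that could be tested, the fall of Themis, while 10 of the 13 lay higher with HDCA (median 0.40). Themis encodes a signalling protein of developing T cells and was at 3.90, 9.45 and 2.55 CPM in HFD and 0.242, 0.116 and 0.541 in HFD_HDCA (log2 fold change -4.12, SE 0.68, adjusted p = 0.0142). The tested markers summed to 17.3 to 24.5 CPM in HFD and 15.6 to 20.9 in HFD_HDCA with Themis, and to 13.4 to 15.4 and 15.5 to 20.7 without it. Among markers too low to be tested, named after their reads were seen, the granule genes Gzma, Gzmb and Prf1 had more reads in every HDCA liver than in any HFD liver, such as 1, 2 and 4 against 29, 7 and 6 for Gzmb. Groups without overlap were also found for 22.4% of all genes tested. The T cell receptor gene Cd3e had 1, 3 and 3 reads in HFD and 0, 8 and 13 in HFD_HDCA. Other untested markers overlapped, such as Ncr1 at 7, 1 and 4 against 1, 4 and 2 reads and Cd8b1 at 4, 2 and 1 against 2, 1 and 5. Cd8a had 5, 3 and 0 against 6, 5 and 5 reads, and Eomes, Ifng and Il4 had at most 3 in any library. Summed B cell markers were 3.59 to 7.45 CPM in HFD and 9.99 to 12.1 in HFD_HDCA, with 7 of 7 tested markers higher and 5 of them passing before adjustment (p under 0.05), but edgeR and DESeq2 called 0. Their part, and that of T cells, in the interferon values was not tested.

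Macrophage markers ranged from 374 to 1505 CPM in HFD and from 720 to 1384 in HFD_HDCA, and edgeR called 0 of 20, while DESeq2 called 1 higher, as did edgeR before adjustment (p under 0.05) and without both libraries. Of 28 cytokine and chemokine genes edgeR also called 0, with 1 higher by DESeq2 and by edgeR before adjustment (median 0.03). Among 29 acute phase genes Lbp, which binds bacterial lipopolysaccharide, rose from 93.7, 94.2 and 92.1 to 192, 169 and 164 CPM (log2 fold change 0.91, SE 0.11, adjusted p = 0.00343), and did so in all 3 HDCA livers alike. Without HFD_HDCA 1 its difference was 0.85 (adjusted p = 0.00550). Steap4, a metalloreductase, fell from 123, 154 and 128 to 69.8, 47.0 and 68.6 CPM (adjusted p = 0.00825). Both held in all 9 fits, and without both libraries that stood apart 1 rose and 2 fell. Saa1, serum amyloid A, was at 49.1, 74.4 and 46.0 CPM in HFD and 3371, 23.4 and 38 in HFD_HDCA. Its difference of 4.34 on the log2 scale (adjusted p = 0.208) became -0.86 without HFD_HDCA 1.

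Several actin and tubulin genes fell. Of 34 matrix and cytoskeleton genes 5 fell and 1 rose, 29 lay lower and the median was -0.59. Actg1, cytoplasmic γ-actin, was at 24.7, 33.8 and 38.5 CPM in HFD and 11.3, 11.9 and 12.2 in HFD_HDCA (log2 fold change -1.46, SE 0.17, adjusted p = 0.00343), with HFD_HDCA livers within 1 CPM of each other. The tubulin genes Tuba1c and Tuba4a fell 3.39-fold from 27.2, 52.3 and 48.0 to 12.6, 14.9 and 10.1 CPM and 2.15-fold from 161, 212 and 196 to 71.6, 110.1 and 83.4 CPM (adjusted p = 0.00617 and 0.00925). Tubb6 and Ctgf, now Ccn2, a matrix protein, fell 3.17-fold and 4.22-fold (adjusted p = 0.0356 and 0.0144), and Tuba8 rose 4.14-fold at a level under 2 CPM. The collagen genes of this list gave no call, whereas Col14a1, a collagen gene outside it, fell. Summed stellate cell markers were 646 to 715 CPM in HFD and 532 to 708 in HFD_HDCA. Of 17 of these markers edgeR and DESeq2 called 0, with 1 lower before adjustment (p under 0.05) and 4 falls without both libraries. The number of falls among the 34 matrix and cytoskeleton genes was 20 without both libraries that stood apart, 14 without HFD 1 and 3 without HFD_HDCA 3. Of 29 cell cycle genes 2 fell and 0 rose, 24 lay lower and the median was -0.52. Ccnd1, cyclin D1, fell from 21.3, 53.1 and 42.9 to 13.1, 13.8 and 15.3 CPM and Rrm2, a ribonucleotide reductase subunit, from 3.79, 5.71 and 7.92 to 2.91, 2.09 and 1.80 (adjusted p = 0.0459 and 0.0426), each called in 2 of 9 fits. The count of falls was 7 without both libraries, 6 without HFD 1 and 0 without ND 1, ND 2, HFD 2, HFD 3, HFD_HDCA 2 or HFD_HDCA 3.

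Clock genes had 2 falls among 20. Per2, a repressor of the clock, fell from 30.8, 15.4 and 20.4 to 3.51, 4.24 and 5.84 CPM (log2 fold change -2.29, SE 0.35, adjusted p = 0.0128) and Bhlhe40 from 234, 101 and 118 to 56.0, 37.7 and 28.1 CPM (adjusted p = 0.0351). HFD 1, the library apart in clock genes, was the highest of its group for both. Without it the differences were -1.98 and -1.43, with adjusted p of 0.0144 and 0.0303. The time of day of dissection was not given, so its part was not tested.

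Further called genes had large fold changes. Lepr, the leptin receptor, was at 3.85, 2.17 and 3.44 CPM in HFD and 5.94, 18.9 and 17.9 in HFD_HDCA (log2 fold change 2.18, SE 0.42, adjusted p = 0.0283), and Enho, which encodes adropin, a secreted peptide of energy balance, at 8.45, 7.27 and 6.04 and 68.1, 34.9 and 19.1 (log2 fold change 2.49, SE 0.44, adjusted p = 0.0255). The HDCA livers differed widely in both, Lepr being lowest and Enho highest in HFD_HDCA 1. Peg3, an imprinted zinc finger gene, rose 5.01-fold from 6.17, 3.28 and 5.16 to 24.0, 31.2 and 17.9 CPM, and Bik, a cell death inducer of the BH3-only class, 4.58-fold from 3.90, 2.22 and 2.71 to 13.0, 12.9 and 14.6 CPM (adjusted p = 0.00341 and 0.00343). Both were called in all 9 fits, as was Eif4ebp3, whereas Lepr was called in 5 and Enho in 7, with 0.0874 without HFD_HDCA 3 and 0.0884 without HFD 3. Among 19 incretin and liver hormone genes Lepr was the 1 rise and Gm6484 the 1 fall, or 4 rose and 0 fell without both libraries. Rab30, a small GTPase of the Golgi, and Derl3, of protein export from the endoplasmic reticulum, rose 4.38-fold and 4.13-fold and were each called in 3 of 9 fits. Among the falls, Lrtm1, a leucine-rich membrane protein, went from 21.0, 24.8 and 14.9 to 4.66, 0.872 and 1.38 CPM, Clec2h, a lectin, from 9.21, 3.18 and 4.58 to 0.727, 0.232 and 1.14 and Chic1 from 3.74, 7.07 and 6.30 to 0.909, 0.930 and 1.5 (adjusted p = 0.0426, 0.0189 and 0.00841). LOC622167, a locus that the annotation used here does not name, fell from 2.06, 3.49 and 1.04 to 0.182, 0.0581 and 0.180 CPM. Igfbp3, a carrier of IGF1, fell 1.94-fold, the 1 call among 12 growth hormone genes (3 falls without both libraries), and Sesn2, a stress-induced brake on the kinase mTORC1, rose 1.91-fold, the 1 call among 32 genes of endoplasmic reticulum stress (2 rises without both libraries).

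Gm15441, named after its values were seen, had the largest fitted rise of all called genes. On chromosome 3 from 96555768 to 96566801, it was at 0.650, 0.606 and 0.417 CPM in HFD, 6.42, 78.8 and 68.8 in HFD_HDCA and 1.07 ± 1.05 in ND (SD, n = 3), a log2 fold change of 6.51 (SE 1.09, adjusted p = 0.0228). The HDCA livers differed widely, HFD_HDCA 1 being far below the others. Gm15441 is an antisense neighbour of Txnip, a glucose-responsive brake on thioredoxin, and without stated strand handling reads of the pair cannot be told apart. Txnip was at 69.9, 65.9 and 76.3 against 177, 179 and 322 CPM (adjusted p = 0.0627). Gm15441 was called in 5 of 9 fits and at 0.0955 without HFD 2.

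Autophagy genes were also grouped after values were seen. Of 29 tested 6 rose and 0 fell, 22 lay higher and the median was 0.16. Map1lc3b, an LC3 protein that coats autophagosomes, rose 1.90-fold from 87.7, 63.6 and 62.1 to 161, 111 and 133 CPM, its relative Gabarapl2 1.67-fold and Map1lc3a 1.49-fold (adjusted p = 0.0182, 0.0190 and 0.0246). Atg12 and Wdr45, of membrane elongation, and Bnip3l, a receptor for mitochondria, rose 1.49-fold, 1.59-fold and 1.52-fold. The count was 9 without both libraries that stood apart and 0 without HFD 2, HFD 3 or HFD_HDCA 3. Oxidative phosphorylation gave no call by edgeR or DESeq2 among 31 subunits, while 7 lay above and 2 below before adjustment (p under 0.05, median 0.16) and 1 fell without both libraries.

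**Figure D4:**
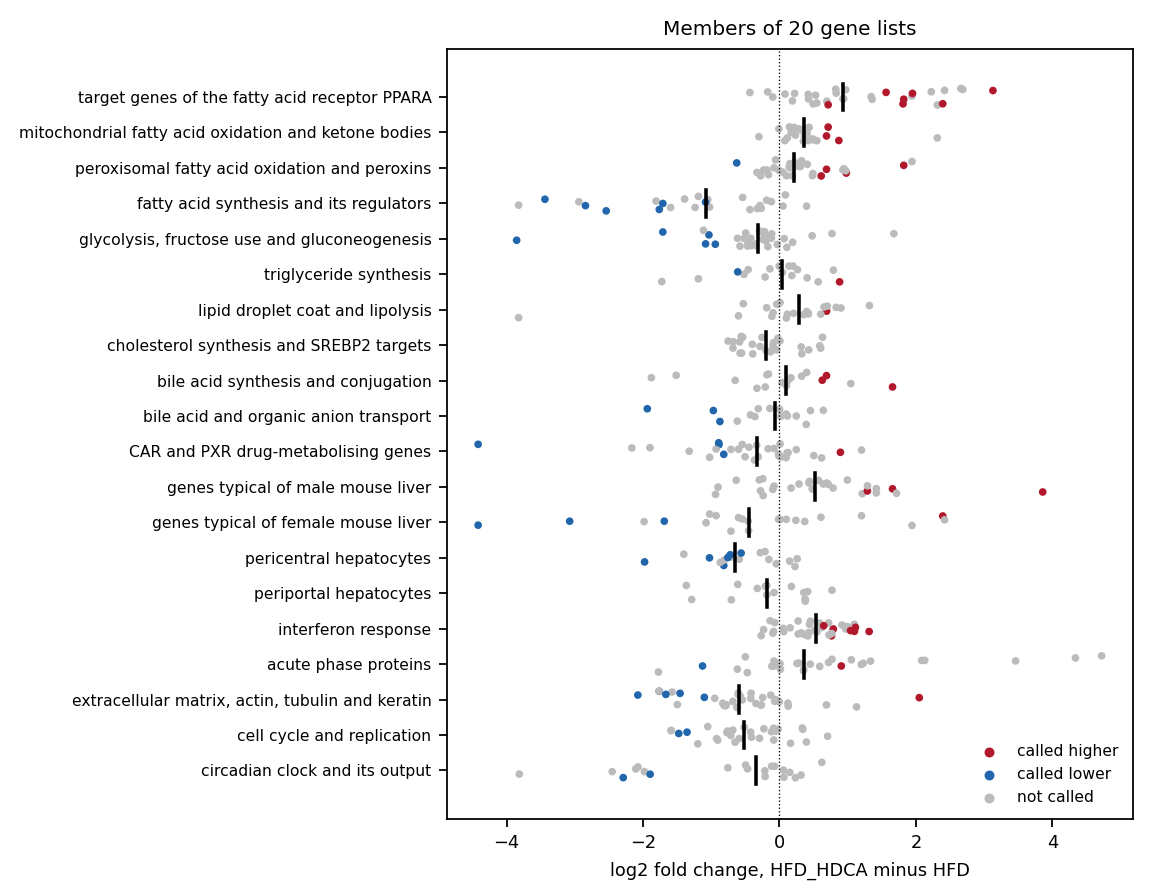
Each point is a tested gene of 1 of 20 lists, with its log2 fold change of HFD_HDCA against HFD on the x axis; red and blue points passed an adjusted p of 0.05, black bars are list medians and the dotted line is the median of all genes. Medians range from -1.08 for fatty acid synthesis to 0.94 for PPARα targets, and most members of each list are grey, that is, not called.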

How the data were processed

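Bulk RNA sequencing of whole liver gave 9 libraries, 3 per diet, made with a TruSeq kit per the labels' protocols. The authors deposited raw read counts per gene symbol, which the names of the deposited tables assign to HTSeq with a setting called antisense. The authors also deposited FPKM per gene, in Cufflinks tables per the file headers. The submitters' processing notes list mm10, TopHat 1.3.2 and Cufflinks 2.0.2. The annotation, and whether counting used strand, are not given in the sources used here, so antisense partners cannot be told apart.

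From the counts, after leaving out the 5 read-class lines, genes were kept at a minimum count of 10 (filterByExpr), which left 10750 of 23337 untested. HFD_HDCA was compared with HFD by edgeR 4.0.16 (R 4.3.3; TMM factors, robust quasi-likelihood test, Benjamini-Hochberg adjustment over all tested genes) in a fit of all 9 libraries, so that the ND livers share the estimate of spread. DESeq2 1.42.0, limma 3.58.1 on log2(FPKM + 1), other filters and scalings, a replicate term and fits without each library were the alternatives. On simulated counts with 12507 genes tested, 75% of 2-fold and 98% of 4-fold changes were recovered with 11 false calls. Changes were planted only in genes with higher mean counts, and each gene varied independently. These rates therefore do not cover genes of low count or shifts of whole libraries such as those of HFD 1 and HFD_HDCA 1. Libraries of a group differed by more than sampling noise (chi-square per degree of freedom 25.7 to 90.8 for pairs within HFD or HFD_HDCA). Pairs of ND livers differed less, at 11.1, 19.0 and 21.6. Since the ND livers share the estimate of spread, the p-values for HFD_HDCA against HFD may be too small.

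The genes named are the 12 largest rises and falls among called genes with at least 2 CPM, predicted and Rik-type symbols left out, the called members and up to 4 of smallest p in each list, a fixed set by name, and those said to be chosen after their values were seen. The comparison, lists and genes were chosen with earlier results of these data known. Some genes that this rule names are not reported here.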

Additional observations from a re-analysis of the deposited data

How the results depend on the processing

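The number of changed genes depended on the test and on single libraries. Against 428 genes (210 higher, 218 lower), DESeq2 called 1085 (583 and 502) and a fit of the 6 HFD and HFD_HDCA libraries alone 134 (52 and 82). Of the 428, only 129 were called in that fit without the ND livers. Without both HFD 1 and HFD_HDCA 1 the number called was 977 (531 and 446). Leaving out 1 library gave 127 (without HFD_HDCA 3) to 672 (without HFD 1), with 55 to 477 higher and 72 to 351 lower. On log2(FPKM + 1) 143 were higher and 377 lower, on log2(FPKM + 0.1) 136 and 372, and without a filter on FPKM 273 in all (70 and 203); the FPKM scale with 0.1 moved the median of all genes to -0.11. The cause was not tested. RLE factors, no count filter and a minimum count of 50 left the counts within 1.5 times.

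Replicate numbers did not pair the samples: deviations of same-numbered HFD and HFD_HDCA libraries correlated at 0.03, -0.04 and -0.15 across genes. With a replicate block, 172 genes were higher and 156 lower, 278 of them among the 428.

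Of 128 genes named, 108 were called, and all 108 kept their direction in every fit that tested them, FPKM included. The libraries of these genes did not overlap between groups, so leaving out libraries could hardly turn a direction, and the kept directions add no support. Of the 108, 37 were called in each of the 9 fits without a library. Directions turned for 3 genes that had not passed. Saa1 (4.34) ran from -0.86 (without HFD_HDCA 1) to 4.95 and was -0.95 without both libraries. Slc10a1 (0.02) ran from -0.0409 (without HFD 1) to 0.0813, was -0.0262 without both, -0.0902 on log2(FPKM + 1) with and without the filter and -0.0904 on log2(FPKM + 0.1). Cidec (0.10) ran from -0.38 (without HFD 1) to 0.82. With 3 libraries per group, a gene that did not pass is not shown to be equal.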

Other observations

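Genes outside the lists above, chosen after their values were seen, also differed by diet and were called in all 9 fits without a library (edgeR's quasi-likelihood test). Nceh1, a hydrolase of cholesteryl esters, rose 2.47-fold from 31.8, 38.8 and 36.4 to 69.4, 91.1 and 104 CPM (adjusted p = 0.00343). Retsat, a retinol saturase, rose 3.42-fold, Nlrp12, an innate immune sensor, 3.65-fold, and St3gal5, which makes the ganglioside GM3, 2.02-fold. Car3, a carbonic anhydrase abundant in liver and fat, fell 2.93-fold from 3321, 5657 and 3947 to 986, 1686 and 1747 CPM (adjusted p = 0.0126). Ces1g, a carboxylesterase, fell 2.35-fold, Tsku, a secreted leucine-rich protein, 3.92-fold, and Sucnr1, the succinate receptor, 2.6-fold. In each of these genes the HFD and HFD_HDCA livers did not overlap. Of 32 proteasome subunit genes, a list also drawn up after values were seen, 29 lay higher with HDCA and 0 fell, but only Psma5 and Psmd9 passed, with a median of 0.19, and none passed without HFD 2, HFD 3 or HFD_HDCA 3. The count was 7 without HFD_HDCA 2, 6 without both HFD 1 and HFD_HDCA 1 and 8 by DESeq2.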
